A study of Homo sapiens with 10 samples.

Results

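RNA polymerase I and RNA polymerase II were compared at places where peaks were called for both, in separate assays of the same cell line. The peaks were those of their largest subunits, POLR1A for polymerase I and POLR2A for polymerase II. Each POLR1A peak was paired with every POLR2A peak that shared at least 1 bp with it. Such an overlap does not show that both were bound in the same cell or on the same DNA molecule. On chromosomes 1 to 22 and X this gave 2752 pairs, made of 2733 of 3812 POLR1A peaks (71.7%) and 2747 of 19997 POLR2A peaks (13.7%). With the POLR2A list cut by fold enrichment to the 3812 strongest peaks, 44.8% of POLR1A peaks had a partner. The histone lists took no part in choosing the pairs. The cells were HCT116, an established human colorectal carcinoma line whose cell type is spelled "human collecteral" in the labels, all WT and untreated as far as the labels say. CUT&Tag, in which an antibody directs a transposase (pAG-Tn5) to cut and tag DNA beside the bound protein, was run with antibodies to POLR1A (Santa Cruz) and POLR2A (Active Motif) in 3 replicates each, and with antibodies to H3K9me3 (3 samples) and H3K4me3 (1 sample used here). Each replicate used 100000 to 200000 cells, and the replicates were made on separate days from newly thawed cells. The growth text also names the degron lines HCT116-POLR2A-AID2 and HCT116-POLR1A-AID, from which no sample was used here.

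Each target had 1 deposited peak list with no value per replicate, so no difference below has a replicate error and none was tested. Intervals in brackets are exact 95% intervals, binomial for shares and order-statistic for medians. They cover counting error over peaks only, and neighbouring peaks are not independent. Read depth is unknown from peak lists. No control-antibody list was used here, so signal that does not depend on the antibody could not be measured. Of 13 colon epithelial marker genes, 6 had a listed start, and POLR2A was found at 5 of them (KRT8, CDX2, ELF3, CLDN3 and CLDN4), against 0 of 2 fibroblast, 2 of 4 leukocyte, 2 of 5 neuronal and 0 of 3 hepatocyte markers, and against 44.0% of all 15811 protein-coding genes. These lists are too short to set against that share. None of these markers had a pair.

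Polymerase I is known for a single class of target, the repeated ribosomal DNA, which it transcribes in the nucleolus into the precursor of the large ribosomal RNAs. Polymerase II transcribes the protein-coding genes and many non-coding RNAs, and it typically accumulates just around the start of transcription before it is released into the gene body. The 2 enzymes share several small subunits, but the large subunits targeted here are separate gene products.

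Some of the sites are shown first as sequence, only where the summits of both polymerases fall in the 250 bases before the gene start. Each run is the 250 bases before a RefSeq gene start (GRCh38.p14), 5′ to 3′ on the gene's strand, and the capitals run from one polymerase's summit to the other's. BRD3OS (chr9:134025231-134025480, + strand), GUK1 (chr1:228139834-228140083, +) and FAM117A (chr17:49764132-49764381, − strand) belong to the 8 exclusive pairs at gene starts that ranked highest in both lists. At the others of these 8, SRGAP2, HDGFL2, CCDC110, PRKCSH and LEPR, at least 1 summit falls outside the 250 bases. MRPL4 (chr19:10251701-10251950, +), H2BC11 (chr6:27132796-27133045, −), NPM1 (chr5:171387599-171387848, +), EIF4B (chr12:53006206-53006455, +) and HNRNPC (chr14:21269443-21269692, −) represent gene lists described further on, from summits that coincide to summits over 100 bp apart.
BRD3OS: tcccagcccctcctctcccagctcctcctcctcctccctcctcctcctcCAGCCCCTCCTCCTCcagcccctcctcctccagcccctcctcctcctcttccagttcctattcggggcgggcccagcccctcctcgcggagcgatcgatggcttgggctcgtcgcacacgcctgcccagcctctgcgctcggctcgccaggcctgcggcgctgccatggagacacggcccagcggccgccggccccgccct
GUK1: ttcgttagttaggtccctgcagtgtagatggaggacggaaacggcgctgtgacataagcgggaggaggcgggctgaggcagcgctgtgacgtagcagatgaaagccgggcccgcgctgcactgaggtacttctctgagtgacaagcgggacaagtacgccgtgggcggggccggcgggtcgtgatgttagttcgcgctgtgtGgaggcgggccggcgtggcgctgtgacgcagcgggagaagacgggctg
FAM117A: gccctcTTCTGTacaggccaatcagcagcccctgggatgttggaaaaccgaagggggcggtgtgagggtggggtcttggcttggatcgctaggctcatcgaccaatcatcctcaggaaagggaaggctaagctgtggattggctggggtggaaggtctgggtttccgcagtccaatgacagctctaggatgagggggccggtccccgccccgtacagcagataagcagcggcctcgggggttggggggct
MRPL4: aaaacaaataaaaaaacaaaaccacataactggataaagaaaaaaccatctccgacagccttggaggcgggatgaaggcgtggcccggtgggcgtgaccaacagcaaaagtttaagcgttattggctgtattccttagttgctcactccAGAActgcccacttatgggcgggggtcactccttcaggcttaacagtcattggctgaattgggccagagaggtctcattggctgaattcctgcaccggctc
H2BC11: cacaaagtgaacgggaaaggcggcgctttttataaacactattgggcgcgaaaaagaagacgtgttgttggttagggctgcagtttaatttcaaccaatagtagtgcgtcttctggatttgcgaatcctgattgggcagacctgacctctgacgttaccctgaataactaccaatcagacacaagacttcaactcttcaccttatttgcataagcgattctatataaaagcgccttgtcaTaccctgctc
NPM1: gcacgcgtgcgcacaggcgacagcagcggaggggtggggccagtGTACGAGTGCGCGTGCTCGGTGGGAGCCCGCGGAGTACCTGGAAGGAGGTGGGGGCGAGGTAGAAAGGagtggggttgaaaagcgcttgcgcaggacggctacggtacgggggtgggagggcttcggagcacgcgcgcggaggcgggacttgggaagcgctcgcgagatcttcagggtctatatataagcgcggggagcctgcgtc
EIF4B: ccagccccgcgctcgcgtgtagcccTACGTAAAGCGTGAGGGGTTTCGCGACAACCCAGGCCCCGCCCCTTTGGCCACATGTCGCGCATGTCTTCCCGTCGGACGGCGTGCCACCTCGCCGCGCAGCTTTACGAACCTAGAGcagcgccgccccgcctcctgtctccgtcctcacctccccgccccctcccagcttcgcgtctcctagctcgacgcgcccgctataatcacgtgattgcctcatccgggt
HNRNPC: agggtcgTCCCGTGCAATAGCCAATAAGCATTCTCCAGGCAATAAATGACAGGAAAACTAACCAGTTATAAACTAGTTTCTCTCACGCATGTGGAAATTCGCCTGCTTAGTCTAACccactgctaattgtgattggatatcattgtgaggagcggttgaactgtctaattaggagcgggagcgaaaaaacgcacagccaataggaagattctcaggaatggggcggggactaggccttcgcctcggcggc

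The capitals cover 1 base in GUK1 and H2BC11, 4 in MRPL4, 6 in FAM117A and 15 in BRD3OS, where they lie in a run of repeated CCTCCT units. They cover 68 bases in NPM1, 109 in HNRNPC and 117 in EIF4B. The FAM117A, MRPL4 and H2BC11 sequences each hold 4 matches to CCAAT, the box bound by NF-Y, counted on both strands. H2BC11, a replication-dependent histone H2B gene, also holds 3 matches to TATAAA, counted in the same way. At 1 place matches on opposite strands overlap, so these are not 3 separate sites. The GC content of H2BC11, 44.0%, is below the 73.2% of BRD3OS.

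Paired peaks were the stronger peaks of both lists. Fold enrichment, the height of a peak over the background that the authors' peak caller estimated, is the authors' value and is used here only to rank peaks within a list. Its median was 6.04 in paired and 4.31 in unpaired POLR1A peaks, and 11.6 in paired and 4.98 in unpaired POLR2A peaks. Of paired POLR1A peaks 47.4% had a −log10 q of 5 or more, against 14.1% of unpaired ones, and of paired POLR2A peaks 89.4%, against 41.5%. Within their own list, 41.4% of paired POLR2A peaks stood in the top 10%.

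Nearly every pair was exclusive. In 2705 pairs (98.3%) neither peak had another partner, 19 POLR1A peaks overlapped 2 POLR2A peaks and 5 POLR2A peaks overlapped 2 POLR1A peaks. The bases shared by the pairs came to 820 kb, which is 63.9% of the 1.28 Mb under POLR1A peaks and 13.8% of the 5.95 Mb under POLR2A peaks. At the edge of the rule, 20 pairs shared fewer than 20 bp, with a median POLR1A fold enrichment of 4.57 (3.46 to 7.14). Just outside it, 7 POLR1A peaks lay within 20 bp of a POLR2A peak, with a median of 5.06 (3.83 to 5.85). The other unpaired POLR1A peaks were mostly far away: the median gap to the nearest POLR2A peak over the 1079 unpaired peaks was 28261 bp, and 8.90% had one within 1 kb.

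POLR2A peaks were the wider ones in most pairs. The median width was 304 bp [299 to 309] for POLR1A and 439.5 bp [431 to 451] for POLR2A, and the median ratio within a pair was 1.33 [1.2997 to 1.355]. POLR2A was wider in 77.6% of pairs, POLR1A in 21.7%, and the widths were equal in 0.654%. A POLR2A peak at least 1.5 times as wide as its partner occurred in 1060 pairs (38.5%), and the reverse in 223 (8.1%). The log2 ratio of POLR1A to POLR2A width had a negative median on 23 of 23 chromosomes, from −0.56 on chromosome 13 to −0.14 on chromosome 21.

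Over the whole lists the order of the widths was the other way round. Over all peaks the POLR1A median was 290 bp and the POLR2A median 244 bp, and among unpaired peaks the values were 260 and 225 bp. The narrowest peak was 196 bp in the POLR1A list and 128 bp in the POLR2A list, so the lists had different lower bounds on width. In 10% of pairs the POLR1A peak measured 213 bp or less, close to that bound.

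**Figure D1:**
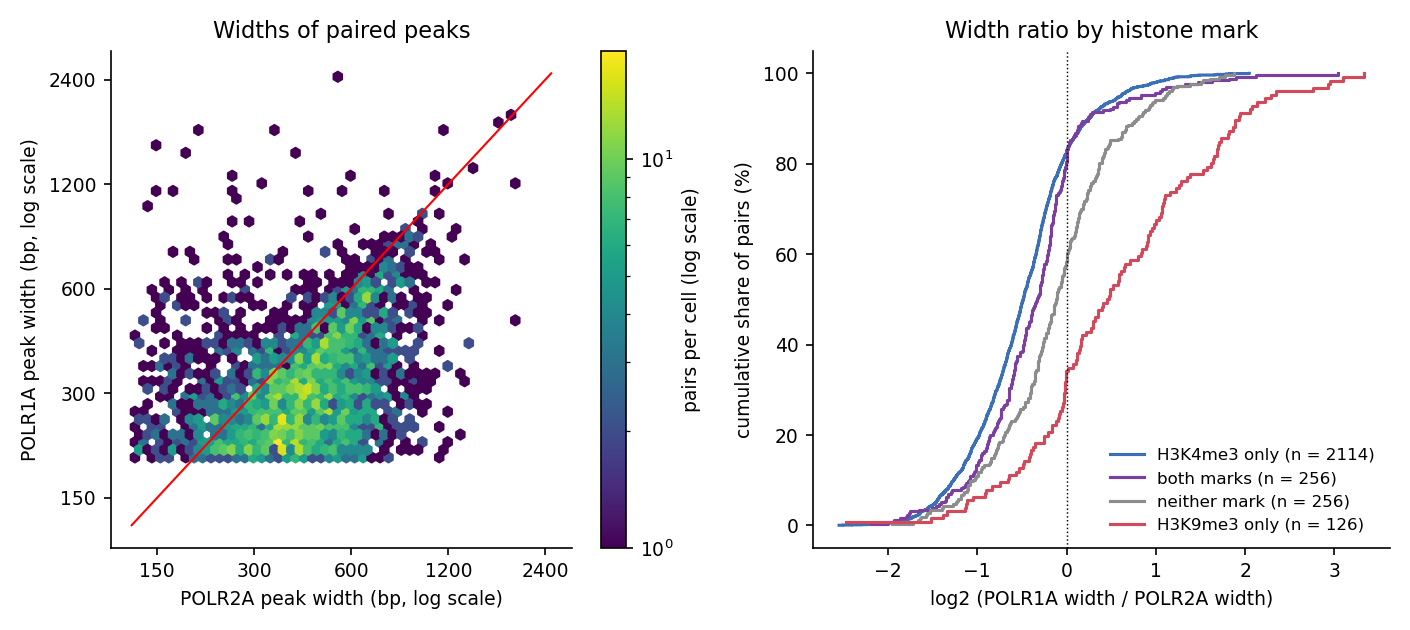
Widths of the 2752 paired peaks. Left: POLR1A against POLR2A peak width in bp on log axes, coloured by the number of pairs per cell, with the red line at equal widths; most pairs lie below it. Right: cumulative share of pairs by log2 width ratio, split by overlap with histone mark lists; the curve for pairs on H3K9me3 without H3K4me3 lies to the right, with a median of 0.46.

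Nesting followed the widths. The POLR1A peak lay wholly inside the POLR2A peak in 1576 pairs (57.3% [55.4 to 59.1]), the peaks were staggered in 950 (34.5%), the POLR2A peak lay inside the POLR1A peak in 217 (7.89%), and both had the same edges in 9 (0.327%). The share with POLR1A inside depended on how strong the POLR2A peak was. With the pairs split into 5 groups of equal size (quintiles) by POLR2A fold enrichment, it was 28.9% in the lowest and 55.6%, 60.5%, 67.5% and 73.9% in the next 4. In the lowest quintile the median widths were 279 bp for POLR1A and 293 bp for POLR2A, and in the highest 327 and 480 bp.

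The pairs with the most unequal widths show both arrangements. Among pairs with −log10 q of at least 5 in both lists at a protein-coding gene start, the widest POLR2A peak relative to its partner was at DBP, a circadian transcription factor gene on chromosome 19. A POLR1A peak of 222 bp (48638183 to 48638404) sat inside a POLR2A peak of 1174 bp (48637364 to 48638537), a ratio of 5.29, with summits 23 bp apart. RBM14, an RNA-binding coactivator gene, followed with a 238 bp POLR1A peak in a 941 bp POLR2A peak. At RAB6A, which encodes a Golgi GTPase, the widths were 202 and 783 bp, at SETD5 344 and 1295 bp, and at the shared start region of HNRNPK, an RNA-binding protein gene, and RMI1, a partner of the BLM helicase, 279 and 1032 bp. In each of these 5 pairs the small POLR1A peak was contained in the POLR2A peak, and in 4 of them the summits lay within 41 bp; at RAB6A they were 111 bp apart.

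The reverse case was less extreme. At the divergent start of PROSER3 and the small heat shock gene HSPB6 the POLR1A peak measured 355 bp and the POLR2A peak 151 bp, a ratio of 2.35. At ACVR1B, an activin receptor gene, a POLR1A peak of 361 bp contained a POLR2A peak of 159 bp that ended on the same base. SH3BP5L had widths of 726 and 364 bp, CARS2, the mitochondrial cysteinyl-tRNA synthetase gene, 976 and 491 bp, and TOMM40L, a gene related to the mitochondrial import pore, 494 and 251 bp. The summits at TOMM40L coincided at 161225800 on chromosome 1 although the widths differed by a ratio of 1.97.

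Summits lay within 100 bp of each other in most pairs. The pairing rule itself limits this distance, because paired peaks overlap, by a median of 264 bp. The median distance between paired summits was 61 bp [57 to 66], with quartiles of 18 and 136 bp. They lay within 10 bp in 20.1% of pairs, within 50 bp in 45.1% and within 100 bp in 1803 (65.5%). In 139 pairs (5.05%) both summits were the same base, and in 9.12% they were over 250 bp apart, up to 1198 bp. The median distance was 57.5 bp with POLR1A inside, 37 bp with POLR2A inside and 79.5 bp in staggered pairs. The POLR1A summit fell inside the POLR2A peak in 92.7% of pairs, the POLR2A summit inside the POLR1A peak in 85.5%, and both in 81.5%. These shares depend on the overlap and nesting of the peaks as well, and no value expected from overlap alone was computed.

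Stronger pairs had closer summits. Over quintiles of POLR1A fold enrichment from lowest to highest, the median distance was 110, 79, 63, 47.5 and 27 bp, and the share within 100 bp went from 46.6% to 81.1%. Over quintiles of POLR2A fold enrichment it was 94, 79.5, 62.5, 51.5 and 37 bp. In the 1240 pairs with −log10 q of at least 5 in both lists the median was 39 bp. The distance moved with peak strength in either list, and the part of strength in it was not tested.

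**Figure D2:**
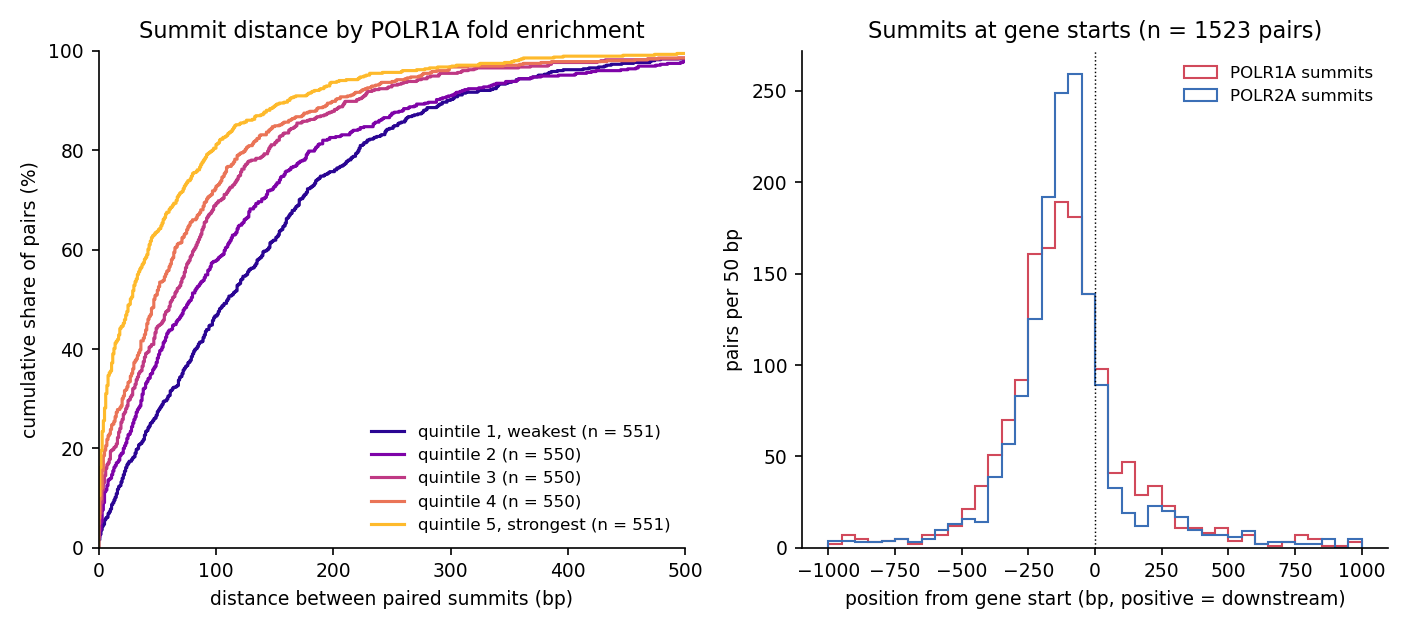
Position of paired summits. Left: cumulative share of pairs by distance between summits in bp, for quintiles of POLR1A fold enrichment; the strongest quintile rises fastest, with a median of 27 bp against 110 bp in the weakest. Right: summits of the 1523 pairs at protein-coding gene starts, in pairs per 50 bp, by position along the gene; both polymerases peak upstream of the start.

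Coincident summits were found at GUK1, the guanylate kinase gene, where both fell on 228140036 of chromosome 1, 48 bp before the gene start. At DKKL1 on chromosome 19 both fell on 49363715, and at SRGAP2 and FAM72A on chromosome 1 both fell on 206203228. The SRGAP2 and FAM72A region has near-identical copies elsewhere in the genome, so its peaks are uncertain. At CCDC110 the summits were 1 bp apart and at FAM117A 5 bp. These 5 were the strongest exclusive pairs at gene starts with summits within 10 bp, with POLR1A fold enrichment of 12.7 to 14.1.

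Among exclusive pairs at gene starts with −log10 q of at least 5 in both lists, the largest separation was at CBX5, which encodes the heterochromatin protein HP1 alpha. There the POLR1A summit lay 291 bp after and the POLR2A summit 528 bp before the gene start, 819 bp apart within a POLR1A peak of 887 bp and a POLR2A peak of 1300 bp. NAIF1 and SLC25A25, a divergent pair, followed with 591 bp, GPBP1L1 and TMEM69 with 518 bp, SDR39U1 with 505 bp and PCGF3, a Polycomb group gene, with 493 bp. Neither polymerase was always the one further downstream: POLR1A was downstream at CBX5, NAIF1 and SDR39U1 and upstream at GPBP1L1 and PCGF3. Peaks with 2 partners gave further wide separations, such as the POLR2A peak of 976 bp at ACTR1A, a dynactin subunit gene, and SUFU, a Hedgehog pathway regulator, which held POLR1A summits 2 and 658 bp from its own summit. A POLR2A peak of 935 bp at NUP62, ATF5 and IL4I1 overlapped POLR1A peaks with summits 621 and 181 bp away, and one of 1935 bp on chromosome 16 (857839 to 859773) had partners with summits 1198 and 346 bp away.

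Gene starts held 1523 of the pairs (55.3%), counted where the span of a pair came within 1 kb of the start of a protein-coding gene. The table of starts lists none on chromosome 8, and it is incomplete elsewhere: only 6 of the 13 colon epithelial markers had a listed start. A start means a listed start throughout, so pairs counted as away from starts can lie at unlisted ones. With that chromosome left out, a start was within 1 kb of 57.3% of paired and 9.47% of unpaired POLR1A peaks, and of 57.4% of paired and 31.2% of unpaired POLR2A peaks. Starts on both strands were present at 282 of the pairs and starts on 1 strand at 1241. At starts, POLR1A was inside POLR2A in 65.7% of pairs, against 46.9% of 1129 pairs away from listed starts outside chromosome 8.

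Both summits lay mostly upstream of the start. The median position was −124 bp for POLR1A [−132 to −112] and −114 bp for POLR2A [−121 to −107], and 76.5% of POLR1A and 81.4% of POLR2A summits were upstream. Within a pair there was no common direction: the median offset along the gene was 0 bp, POLR1A lay downstream of POLR2A in 47.1% and upstream in 47.3%, and the central 80% of pairs lay between −155 and 154 bp. The POLR2A peak extended past its partner by a median of 52 bp on the upstream side and 66 bp on the downstream side. The extra width of POLR2A was thus spread over both sides of POLR1A.

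Where starts lay on both strands, the pairs were wider. Median widths were 330.5 bp for POLR1A and 520 bp for POLR2A, against 303 and 459 bp where starts lay on 1 strand, and POLR1A was inside POLR2A in 72.3% against 64.1%. The median summit distance was 56.5 bp against 64 bp. The offset along the gene, taken from the nearest start, had a median of 0 in both.

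Strength was partly shared between the polymerases. Over the 2752 pairs, Spearman's coefficient of POLR1A and POLR2A fold enrichment was 0.52, that of −log10 q 0.51 and that of width 0.35. Pearson's r of log2 fold enrichment was 0.51. These describe pairs from single lists that share the assay, cell line and position, and POLR1A fold enrichment took 1019 distinct values over the pairs, so ties are common. Of the 275 pairs in the top 10% by POLR1A, 110 (40.0%) were in the top 10% by POLR2A. The percentiles among pairs lay within 10 points of each other in 33.7% of pairs and over 50 points apart in 8.54%.

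The disagreement was one-sided at the extremes. Of the top 10% by POLR1A, 4.0% [2.01 to 7.04] were in the bottom 10% by POLR2A, whereas of the top 10% by POLR2A none of 275 was in the bottom 10% by POLR1A [0 to 1.33]. By chromosome, the Spearman coefficient ranged from 0.22 on X to 0.68 on chromosome 13. At gene starts it was 0.56, and away from them, outside chromosome 8, 0.50.

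**Figure D3:**
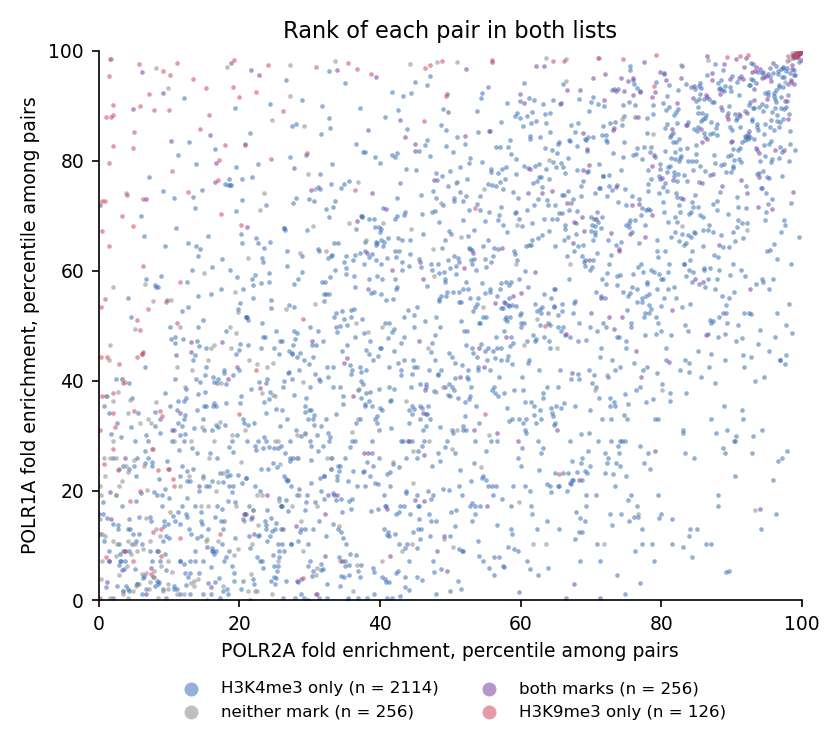
Percentile of fold enrichment among the 2752 pairs, POLR2A on the horizontal and POLR1A on the vertical axis, 1 point per pair coloured by histone mark lists. Points spread around the diagonal, the lower right corner holds few points, and pairs on H3K9me3 without H3K4me3 lie along the left and top edges.

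Exclusive pairs at gene starts with −log10 q of at least 5 in both lists were ordered by the worse of their 2 ranks, each as a share of its own list, and were led by BRD3OS on chromosome 9, a gene lying opposite the BET family gene BRD3. Its fold enrichments, 22.4 for POLR1A and 34.5 for POLR2A, stood in the top 0.866% and 0.105% of their lists, and the 387 bp POLR1A peak shared all of its bases with the POLR2A peak of 395 bp. GUK1 had values of 14.1 and 20.0, SRGAP2 with FAM72A 13.9 and 25.6, and HDGFL2, a chromatin reader gene of the HDGF family, 13.3 and 23.1. CCDC110 had 13.0 and 23.8, FAM117A 13.0 and 21.1, PRKCSH, the beta subunit gene of glucosidase II, with ODAD3 13.0 and 22.996, and the leptin receptor gene LEPR with LEPROT 12.7 and 22.6. DKKL1, with 12.7 and 25.6, tied with LEPR in this order, and the tie was settled by position. In each of the 8 the worse rank was that by POLR1A. In 7 of the 8 POLR1A was inside POLR2A, and at CCDC110 the peaks were staggered with 267 bp in common. H3K4me3 was present at all 8, and H3K9me3 at SRGAP2 of these 8.

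Other starts ranked high for 1 polymerase. TMEM216, a gene of the ciliary transition zone, stood at percentile 96.5 among pairs by POLR1A and 21.6 by POLR2A; the pair lay 1276 bp before the gene by its POLR1A summit and overlapped both histone marks. ARF3, a small GTPase gene of the secretory pathway, stood at 82.1 and 16.6, HSPA13, an HSP70 family gene, at 91.0 and 28.9, PDE4C, a cAMP phosphodiesterase gene, at 73.5 and 13.4, and MORN4 at 76.1 and 16.5. In the other direction CENPX, a centromere protein gene, with LRRC45 stood at 43.0 by POLR1A and 97.6 by POLR2A. CCDC186 stood at 58.6 and 95.9, HAUS8, an augmin subunit gene, with MYO9B at 61.2 and 98.5, GRSF1, an RNA-binding protein gene, at 58.0 and 94.5, and ATP5MC2, a c subunit gene of ATP synthase, at 57.5 and 93.5. Since each of these pairs had to pass −log10 q of 5 in both lists, none could stand near the bottom by POLR1A.

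The histone lists, which had no part in the pairing, divided the pairs. H3K4me3, the mark of active promoters, overlapped 2370 pairs (86.1%) and H3K9me3, a heterochromatin mark, 382 (13.9%). A pair counted for a mark if either of its peaks overlapped it. Taken as single peaks, H3K4me3 overlapped 85.8% of paired POLR1A and 85.9% of paired POLR2A peaks, and H3K9me3 13.6% of each. Of unpaired peaks, H3K4me3 overlapped 15.3% of POLR1A and 44.3% of POLR2A, and H3K9me3 20.8% and 1.92%. H3K4me3 without H3K9me3 was found at 2114 pairs, both marks at 256, H3K9me3 alone at 126 and neither at 256.

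The order of the widths was the other way round in the 126 pairs on H3K9me3 alone. POLR1A was wider in 65.9% of them, against 17.2% of pairs on H3K4me3 alone, with median widths of 409 bp for POLR1A and 287 bp for POLR2A. The POLR2A peak lay inside the POLR1A peak in 45.2% and the reverse in 18.3%, against 4.26% and 61.8% on H3K4me3 alone. The median POLR2A fold enrichment of these pairs was 5.596, against 12.1 on H3K4me3 alone, while that of POLR1A was 7.61 against 5.96. A gene start was within 1 kb of 1 of the 126 pairs, and outside chromosome 8, 27.4% lay in 1 Mb bins without a protein-coding gene start, against 0.342% of the pairs on H3K4me3 alone. POLR2A strength moved with this grouping, and its part in the widths was not tested.

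The highest POLR1A values of all belonged to pairs that were not at gene starts. In 34 pairs the POLR1A −log10 q was 100 or more. None was within 1 kb of a listed protein-coding start, 25 overlapped H3K9me3, and their summits lay a median of 8.5 bp apart. In 16 of the 34 the peaks shared an edge to the base, against 9.48% of all pairs. Of the 34, 24 lay within 200 kb of a chromosome end, a grouping chosen after the values were seen, and 10 elsewhere. The 76 pairs near chromosome ends had a median summit distance of 19 bp and a median log2 width ratio of 0.01, and in 26.3% they shared an edge. With these 76 left out, the median distance was 63 bp and the log2 width ratio −0.43. Such ends carry repeated sequence, and the treatment of reads that map to several places is not given in the sources used here, so the peaks there are uncertain. On chromosome 21 a POLR1A peak of 613 bp (46699409 to 46700021) with a fold enrichment of 20.6 spanned POLR2A peaks of 212 and 159 bp on H3K9me3. Their values were 3.64 and 15.3, and the first had a −log10 q of only 1.48. It is 1 of the 19 POLR1A peaks with 2 partners, and the unknown treatment of multiply mapped reads applies to it too.

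Of 15811 protein-coding genes with a listed start, 1803 (11.4%) had a pair within 1 kb. POLR2A was found at the start of 6960, of which 1802 (25.9%) had a pair. Groups of genes were counted against these shares. A pair at a divergent start counts for both genes, and members of a list can share it. Of the 19 lists, 15 had a share above that of all genes. The lists were chosen with earlier results of these data known, so this count is a description and no independent support. In these 15, POLR2A was found at 52.2% to 91.3% of members, against 44.0% of all genes. Among members with POLR2A, not all of these 15 stayed above the 25.9%. Polymerase II (18.5%), ribosome biogenesis (20.0%) and proteasome genes (21.4%) lay below it. So did cytosolic ribosomal (22.2%), mitochondrial ribosomal (23.6%) and respiratory chain genes (24.5%), and the rest of the 15 lay above it. With −log10 q of at least 5 in both lists 893 genes (5.65%) had a pair, with shares of 35.3% for chaperones, 16.2% for spliceosome genes and 13.0% for translation factors. At that threshold 5 lists passed from above to below the share of all genes: polymerase I (5.26%), polymerase II (5.13%), cytosolic ribosomal proteins (4.35%), respiratory chain (4.41%) and replication-dependent histones (4.48%). The polymerase III list had 6.25% and the immediate early genes 0%.

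Chaperones had the highest share. Of 34 heat shock protein and chaperone genes, 19 had a pair (55.9% [37.9 to 72.8]), which was 63.3% of the members with POLR2A. P4HB, the protein disulfide isomerase gene, had fold enrichments of 10.8 for POLR1A and 22.96 for POLR2A. DNAJB1, an HSP40 gene sharing its start region with TECR, had 10.7 and 18.3, PDIA4, another disulfide isomerase gene, 9.83 and 21.9, and STIP1, the HSP70 and HSP90 organising protein gene, 9.58 and 20.1. In these 4 POLR1A was inside POLR2A, with summits 18 to 102 bp apart. Of 7 genes for the CCT chaperonin, 3 had a pair, including CCT3 with TSACC (9.22 and 19.3).

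Among the lists of over 50 genes, RNA processing and translation genes had the highest shares. Of 68 spliceosome and HNRNP genes 26 had a pair (38.2% [26.7 to 50.8]). SF3B6, a U2 snRNP component gene, at the start shared with FAM228B had values of 10.1 and 16.1, HNRNPC 9.37 and 18.7, HNRNPUL1 9.32 and 19.1, and SNRPA, a U1 snRNP component gene, with ACTMAP 9.17 and 15.9. Of 54 genes listed under translation initiation and elongation factors 16 had a pair (29.6% [18.0 to 43.6]). They were led by EIF4B with 9.99 and 17.9 and EEF1G with 8.50 and 15.3. EIF2AK3, the PERK kinase gene, followed with 8.39 and 14.5, and EEF1E1, which also counts under aminoacyl-tRNA synthetases, with 7.79 and 12.6. At EIF4B the POLR1A summit lay 116 bp upstream of the POLR2A summit, and at EIF2AK3 68 bp downstream, with the widths 609 and 675 bp.

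Genes of the transcription machineries themselves were also among those with pairs, and are set here against the 11.4% of all genes. Of 19 polymerase I subunit and ribosomal DNA factor genes 5 had a pair (26.3% [9.15 to 51.2]), of 16 polymerase III genes 5 (31.2% [11.0 to 58.7]) and of 39 polymerase II subunit and general factor genes 5 (12.8% [4.30 to 27.4]). TBP, the TATA-binding protein gene that counts under both the polymerase I and polymerase II lists, had values of 7.37 and 16.0. BRF1, a TFIIIB subunit gene, had 8.32 and 16.8 with summits 1 bp apart, and GTF2B, the TFIIB gene, 7.61 and 11.2 with summits 9 bp apart. Of members with POLR2A, 41.7%, 50% and 18.5% had a pair, in the order polymerase I, III and II, against 25.9% of all genes with POLR2A. These lists are short, and the intervals of all 3 are wide and include 11.4%.

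Ribosome genes lay nearer the share of all genes. Of 69 cytosolic ribosomal protein genes 14 had a pair (20.3% [11.6 to 31.7]), though 63 had POLR2A, so 22.2% of those with POLR2A had a pair against 25.9% overall. RPS27A with CLHC1 had values of 8.84 and 15.1, RPS19 6.69 and 11.7, and RPL35 with ARPC5L 6.50 and 16.4. Of 69 mitochondrial ribosomal protein genes 13 had a pair (18.8%), among them MRPL4 (7.65 and 12.7, summits 3 bp apart), MRPS7 (7.19 and 10.1, 1 bp), MRPS16 (7.18 and 11.8, 2 bp) and MRPL38 (6.80 and 18.9, 97 bp). Of 35 ribosome biogenesis genes 6 had a pair (17.1%), including NPM1, the nucleophosmin gene, with 10.4 and 20.985, UTP18 with MBTD1 (11.3 and 24.7) and NHP2, an H/ACA ribonucleoprotein gene (6.34 and 16.0).

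Other groups with pairs were aminoacyl-tRNA synthetases (8 of 31, among them EARS2 with UBFD1 and TARS1), the p53 pathway (5 of 16, among them FDXR, whose summits coincided, PLK3 and TP53I3), respiratory chain and ATP synthase genes (12 of 68, led by ATP5MC1 with 11.2 and 24.9) and proteasome genes (6 of 42, among them PSMA1, PSMD9 and PSMG1). Of their members with POLR2A, 29.6%, 41.7%, 24.5% and 21.4% had a pair in that order, against 25.9% of all genes with POLR2A, so the last 2 lay below that share. Of 67 replication-dependent histone genes 13 had a pair (19.4% [10.8 to 30.9], against 11.4% of all genes), at 8 pairs in all. The strongest, at H2BC11 with H2AC11, had values of 11.9 and 17.9. At H2BC11 both summits fell on 27132805 of chromosome 6, 10 bp before the start, and the POLR2A peak of 756 bp was 2.02 times as wide as its partner. Immediate early genes had a pair at 2 of 19 although 16 had POLR2A. Glycolysis genes had none at 17 [0 to 19.5], of which 9 had POLR2A. HOX genes (0 of 20 [0 to 16.8]) and olfactory receptor genes (0 of 312 [0 to 1.18]) had none, with POLR2A at 4 and 1 of them. The glycolysis and HOX intervals include the 11.4% of all genes.

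**Figure D4:**
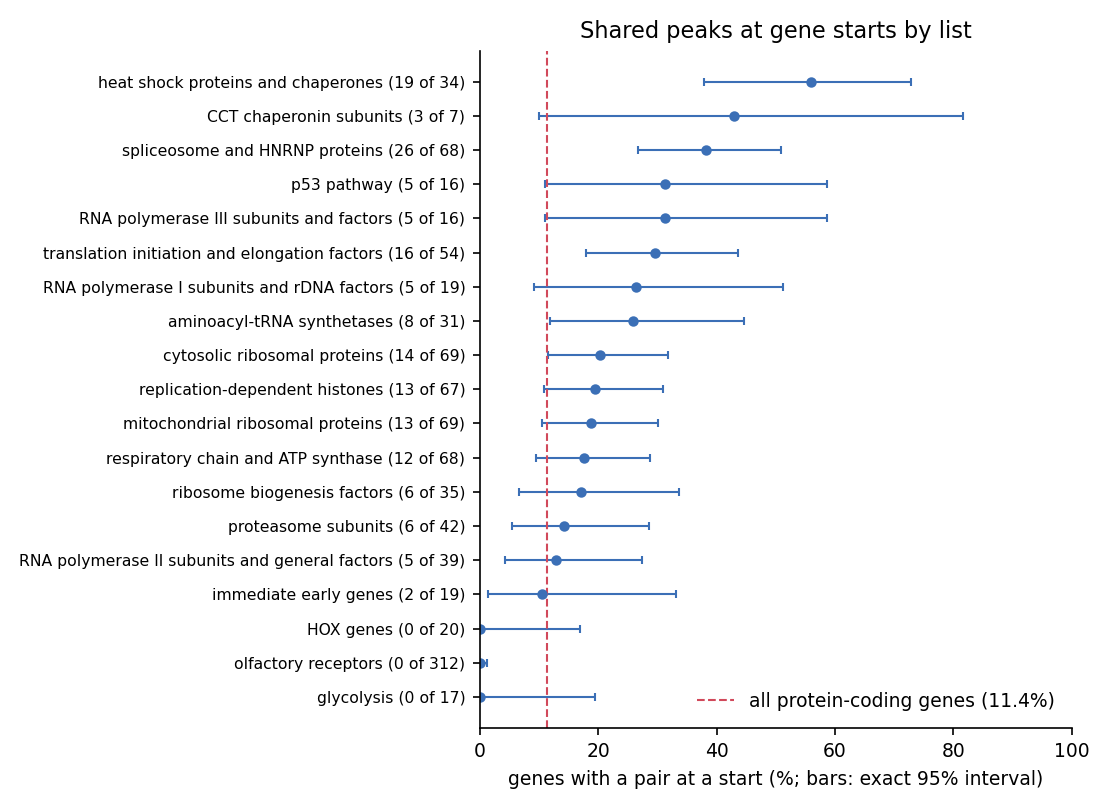
Share of the genes of each list with a pair within 1 kb of a start, in %, with exact 95% intervals (counting error only); the dashed line is the 11.4% of all protein-coding genes. The intervals of the chaperone, spliceosome, translation factor, aminoacyl-tRNA synthetase and cytosolic ribosomal protein lists lie wholly right of the line, the last 2 by a small margin. The lists were chosen with earlier results of these data known.

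Start windows of 300 bases (250 before to 50 after the start) were searched for 7 short motifs. CCAAT, on either strand, was found in 52.5% [50.2 to 54.8] of 1838 windows touched by a pair, 38.5% [37.2 to 39.8] of 5453 windows with POLR2A and no POLR1A, and 31.0% [30.2 to 31.7] of 14660 windows with neither, against 34.7% of all 22011 windows. GGGCGG, the GC box, was found in 77.6%, 74.97% and 46.6% (all windows 56.3%). The median GC content was 64.3%, 66.3% and 59.3%, so CCAAT was more frequent at pairs while GC content was lower there than at POLR2A alone. TATAAA was found in 3.75%, 4.53% and 12.1% (all windows 9.49%), and CCGGAA, the core of ETS sites, in 33.5%, 36.0% and 13.9% (all windows 21.1%). In the same order of windows, GCATGCG, as in NRF1 sites, was found in 8.71%, 7.83% and 2.89% (all windows 4.60%). AAGATGG, as in YY1 sites, was found in 9.85%, 8.45% and 4.68% (all windows 6.06%). TGACGTC, as in CREB sites, was found in 6.20%, 6.31% and 2.95% (all windows 4.07%). None of the motifs contains another, and a match is a description, not a bound site.

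CCAAT also moved with POLR2A strength. Over quintiles of POLR2A fold enrichment among windows with POLR2A, it was found at pairs in 37.5%, 39.2%, 46.4%, 50% and 59.2% and at POLR2A without POLR1A in 28.6%, 35.2%, 42.3%, 46.7% and 48.2%. In the highest quintile the intervals were 55.9 to 62.5 over 871 windows and 44.1 to 52.3 over 587. In each of the other quintiles the intervals of pairs and of POLR2A without POLR1A overlapped. The difference there was 3.29 to 8.88 percentage points, against 14.0 over all windows, where pairs had the stronger POLR2A peaks. A gene can have several windows, so windows are not independent. FAM117A, MRPL4 and H2BC11 above are examples with 4 matches each, and BRD3OS and GUK1, which had higher POLR1A fold enrichment, have none.

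Counts per 1 Mb showed where along the chromosomes the pairs lay. Of 3043 bins, 1245 (40.9%) held a paired POLR1A peak, 28.2% held POLR2A without POLR1A, 1.81% held POLR1A without POLR2A and 21.4% held neither. Spearman's coefficient between POLR1A and POLR2A counts was 0.68, and 0.69 between paired POLR1A and POLR2A counts, but 0.32 between unpaired POLR1A and POLR2A counts, which was 0.06 among peaks with −log10 q of at least 5. The pairing rule favours this contrast, since each paired POLR1A peak overlaps a POLR2A peak and the unpaired ones are those that overlap none. Paired POLR1A counts and the counts of POLR2A peaks that had no partner, which share no peak, had a Spearman coefficient of 0.60. With the same POLR2A counts, unpaired POLR1A counts had a coefficient of 0.31. Bins share gene density: the Spearman coefficient with the number of protein-coding gene starts was 0.59 for POLR1A and 0.78 for POLR2A, chromosome 8 left out.

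The mean number of POLR1A peaks per bin was 0.106 ± 0.421 (SD over 706 bins) without POLR2A, 0.563 ± 1.01 with 1 to 4 POLR2A peaks, 1.13 ± 1.299 with 5 to 9, 2.27 ± 2.26 with 10 to 19, 4.27 ± 2.52 with 20 to 29 and 9.26 ± 3.86 with 30 or more. Over the same classes from 1 to 4 upward, the share of POLR1A peaks that were paired was 54.1%, 70.6%, 73.0%, 79.5% and 87.6%. A bin with more POLR2A peaks offers more possible partners, so the pairing rule alone can raise this share. By chromosome the paired share ranged from 53.4% on 21 to 86.8% on 19.

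**Figure D5:**
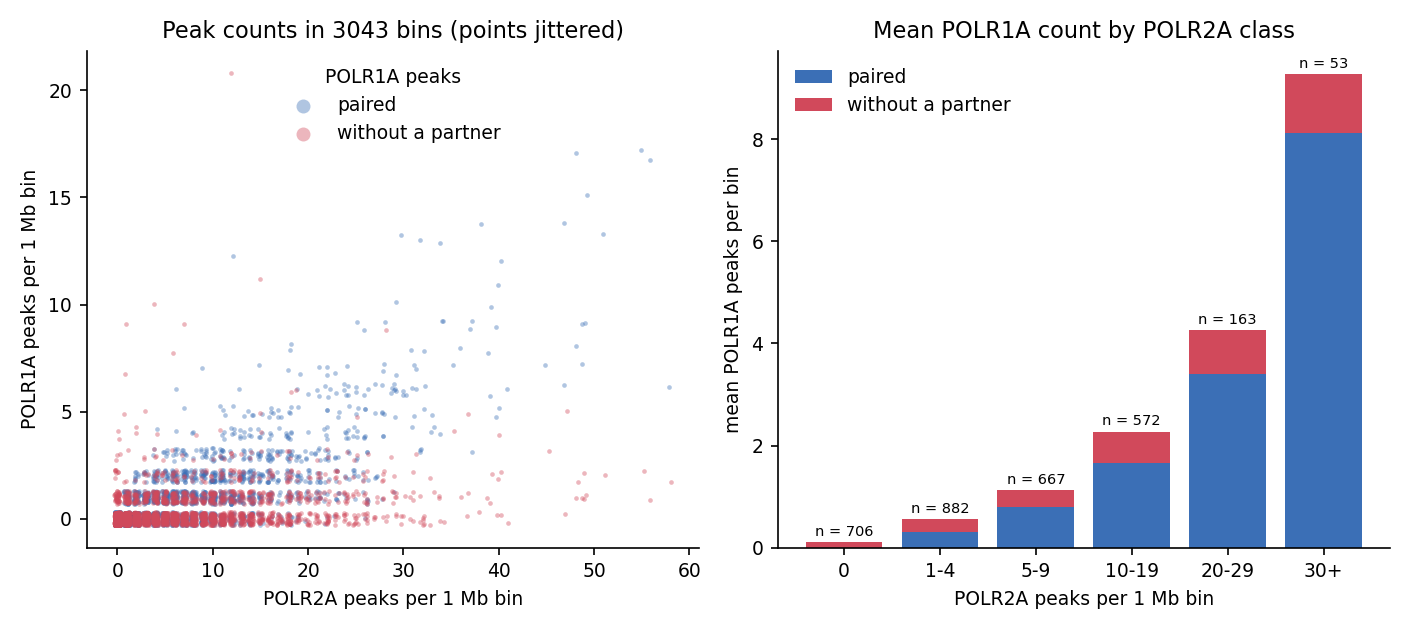
POLR1A and POLR2A peaks in 3043 bins of 1 Mb. Left: paired and unpaired POLR1A peaks against POLR2A peaks per bin, with points jittered. Right: mean POLR1A peaks per bin, stacked as paired and unpaired, by number of POLR2A peaks, with the number of bins above each bar; the mean is 0.106 without POLR2A and 9.26 with 30 or more.

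The bins with most pairs were gene-dense. On chromosome 19 from 45 to 46 Mb there were 55 POLR2A and 19 POLR1A peaks, 17 of them paired, and from 17 to 18 Mb 56 and 18, with 17 paired. On chromosome 17 from 75 to 76 Mb, which holds MRPS7 and MRPL38, there were 48 and 18, with 17 paired. The bin at 48 to 49 Mb of chromosome 19, which holds DBP, had 49 POLR2A and 16 POLR1A peaks, with 15 paired. The bin beside it, 49 to 50 Mb, which holds DKKL1 and NUP62, had 47 and 14, and each of the 14 was paired.

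Unpaired POLR1A peaks also became more frequent with POLR2A: over the same classes from no POLR2A peak upward their mean per bin was 0.106, 0.259, 0.331, 0.614, 0.877 and 1.15. The 3 bins with most of them were not among the bins named above. On chromosome 4 from 49 to 50 Mb, a bin without a protein-coding gene start, there were 33 POLR1A and 12 POLR2A peaks, and 21 POLR1A peaks had no partner while each of the 12 POLR2A peaks had one. On chromosome 17 from 21 to 22 Mb 11 of 15 POLR1A peaks were unpaired, and on chromosome 1 from 143 to 144 Mb 10 of 11. The treatment of reads that map to several places is not given in the sources used here, so the counts in these 3 bins are uncertain. The part of repeated sequence in them was not tested. Among bins without any POLR1A peak, the most POLR2A peaks were on chromosome 3 from 196 to 197 Mb (23), chromosome 7 from 116 to 117 Mb (22) and chromosome 12 from 110 to 111 Mb (20).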

How the data were processed

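The files were peak lists in narrowPeak format, 1 for each of 4 targets, on GRCh38 (hg38) per the submitters' processing notes. The authors' deposited columns used were the fold enrichment of each peak (a linear ratio), its −log10 q, and its start, end and summit offset. The file names carry macs2. Per the same notes, tools included STAR and SAMtools 1.6. Not given in the sources used here are caller settings, control, pooling of replicates and handling of multiply mapped reads. Peaks were paired by an overlap of at least 1 bp in Python 3.11.15 (pandas 2.3.3, SciPy 1.17.1), and the pairing code was tested on simulated lists. Gene starts and promoter windows came from RefSeq (GRCh38.p14). The table used lists 15811 protein-coding genes and none on chromosome 8, and it is incomplete on other chromosomes. Named genes came from 730 exclusive pairs at gene starts with −log10 q of at least 5 in both lists: the 8 strongest in both, the 5 most unequal in percentile, width or summit position in each direction, the 5 strongest with summits within 10 bp, up to 4 per list, and the peaks and bins with most partners. The pairs and the 19 gene lists were chosen with earlier results of these data known. No test was run, since each polymerase has 1 list. Results were recomputed under 16 alternative settings, 4 of them added after the data were seen; 3 of the others were then also applied to the histone overlap.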

Additional observations from a re-analysis of the deposited data

Results flagged for a closer look

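Outside chromosomes 1 to 22 and X, which the comparisons did not use, 130 of 310 POLR1A peaks overlapped 1 of 319 POLR2A peaks by at least 1 bp (41.9%). They were 10 of 40 on chromosome Y, 9 of 9 on the mitochondrial genome and 111 of 261 on other contigs. No control list was used here, so no background level can be set beside these counts.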

How the results depend on the processing

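No median or coefficient changed sign. Of 115 recomputed values, 62 stayed within the interval of the value reported or, for the count of genes with a pair, within 1.5 times it. Of the 19 gene lists, 5 changed side against the share of all genes at −log10 q of at least 5, and 4 at an overlap of 50% of both peaks, where all genes had 8.27%: polymerase II (5.13%), cytosolic ribosomal proteins (7.25%) and histones (2.99%) lay below it and immediate early genes (10.5%) above it. With a window of 500 bp the polymerase II list (10.3%) lay below all genes (11.0%). Cut to −log10 q of at least 5 in both lists, 85.5% of POLR1A and 12.9% of POLR2A peaks were paired, the median log2 width ratio was −0.37 with POLR2A wider in 81.2%, summits lay 39 bp apart at the median with 77.1% within 100 bp, and POLR1A was inside POLR2A in 64.0%. The Spearman coefficient was 0.39 over pairs, 0.54 over bins and 0.060 for unpaired POLR1A peaks, median positions at starts were −150 bp for POLR1A and −134 bp for POLR2A, 893 genes had a pair, and H3K4me3 and H3K9me3 overlapped 91.2% and 18.8% of pairs. With the POLR2A list cut to the length of the POLR1A list the shares paired were 44.8% and 44.7%, the width ratio −0.48 with POLR2A wider in 86.4%, the summit distance 50 bp with 71.9% within 100 bp, POLR1A inside in 67.5%, POLR2A inside in 3.63%, the Spearman coefficient over pairs 0.45, the Spearman coefficient for unpaired POLR1A peaks 0.41, the POLR2A position −122 bp and the H3K4me3 share 94.5%. Requiring an overlap of 50% of both peaks gave 50.8% and 9.69% paired, −0.33, 79.4%, 50 bp, 71.1% within 100 bp, 59.7% with POLR1A inside, a Spearman coefficient of 0.56 and 88.0% with H3K4me3. Without pairs that share an edge the width ratio was −0.44 and POLR2A was inside in 6.30%. Bins of 500 kb gave a Spearman coefficient of 0.60 for POLR1A and 0.23 for unpaired POLR1A peaks, bins of 2 Mb 0.76 and 0.40, and bins with a peak 0.58 and 0.20.

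Settings added after the data were seen gave −0.44, 79.6% and 5.49% (width ratio, POLR2A wider, POLR2A inside) without pairs on H3K9me3, and −0.50, 85.3%, 65.7% with POLR1A inside, 3.61% with POLR2A inside and a Spearman coefficient of 0.56 over pairs at gene starts. Over bins with a gene start the Spearman coefficient was 0.66. The cause of these shifts was not tested. No paired analysis was possible because the lists carry no replicate number and no result comes from a test. Peak lists hold no depth, so a missing partner does not show that a polymerase was absent, and the longer POLR2A list offers more partners to POLR1A than the reverse.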
